A study of Flaveria robusta and Flaveria ramosissima and Flaveria trinervia with 18 samples.

Results

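Of 30040 gene rows measured by RNA sequencing in leaves of 3 Flaveria species, 124 were selected on their TPM values, because high light went with a higher transcript level in F. robusta, a C3 plant, and with a moderately lower level in F. trinervia, a C4 plant. A member had to reach a mean of at least 5 TPM (a transcript abundance per unit of gene length, scaled to a fixed library total) in both of these species. Each of its 3 high-light libraries in F. robusta had to lie above each of the 3 control libraries, with a mean at least 1.3 times that of the control. In F. trinervia each of the 3 high-light libraries had to lie below each control library, with a ratio of mean TPM above 0.5 and at most 0.77. The members were thus chosen by the light contrast of these 2 species, whose values are given as a description without a test. The third species, F. ramosissima, a C3-C4 intermediate, had no part in the choice.

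The labels name no transgene or mutation, and the sampled tissue was a newly expanded, mature leaf. High light was 1400 and control light 500 µmol photons per square metre and second, with 3 libraries for each light level of each species, 18 in all. Additional lamps in a greenhouse gave the high light, while the growth description also names a chamber at a lower light than either level. The plants' age, the length of the exposure and whether the 3 libraries of a group came from separate plants were not stated in the sources used here, so p-values measure only the spread between these libraries, which may be technical. Each kind of photosynthesis was held by 1 species, so that species and pathway cannot be told apart.

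In C3 plants Rubisco fixes CO2 directly in the mesophyll, and its reaction with oxygen starts photorespiration. C4 plants first fix CO2 into an organic acid in the mesophyll and release it around Rubisco in the bundle sheath, which holds photorespiration low, and the genus Flaveria is known for holding C3, intermediate and C4 species that are closely related. Light beyond what carbon fixation can use is known to bring photoprotection, antioxidant enzymes and changes in light harvesting in leaves. The table gives gene numbers without names, so the members cannot be placed among these functions, the leaf label could not be checked against marker genes, and 4 members are named by their numbers. These are the member with the largest difference in log2 ratio between F. robusta and F. trinervia, the most abundant member, and the members with the most positive and the most negative light change in F. ramosissima. Other members are given by their rank, from 1 for the largest difference between the 2 species' log2 ratios to 124 for the smallest, and those singled out by rank were chosen after their values were seen.

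The libraries were of a like total, with 903641 to 929124 TPM over the listed rows, and read depth is unknown because TPM keeps none. In F. robusta, high-light library 2 was the lowest of its group in 77.4% of the 7648 rows that reached the 5 TPM floor, and it was the lowest in 83 of the 124 members. In F. ramosissima, control library 1 was the highest of the 6 libraries in 38.7% of floor rows and in 52 members (41.9%), and high-light library 2 was the lowest in 33.5% of floor rows and in 45 members (36.3%). Most rows at the floor were lower in high light in F. trinervia, with a median change of -0.28 on the log2(TPM + 1) scale, against -0.12 in F. ramosissima and -0.065 in F. robusta.

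The first step of the choice was met by 406 of the 7648 floor rows in F. robusta (5.31%), and the step in F. trinervia by 2466 (32.2%). The members were 30.5% of the rows raised in F. robusta, a share near the 32.2% of all floor rows that met the F. trinervia step. They were 5.03% of the rows lowered in F. trinervia, near the 5.31% of floor rows that met the F. robusta step. That these shares were near each other holds only for TPM as deposited, and scaling changed them. After scaling each species' libraries by their median ratio, 151 rows met the rule, out of 822 raised in F. robusta and 904 lowered in F. trinervia. After quantile normalization 138 rows met it, out of 577 raised and 1201 lowered. Floor rows were not counted after scaling, so no share over them stands beside these counts. Among the other 282 rows raised in F. robusta, 73 were also lower in every high-light library of F. trinervia but at a ratio of 0.5 or less, 22 were lower at a ratio above 0.77, 148 overlapped between light levels and 39 were higher in every high-light library. The opposite pattern, lowered within the same limits in F. robusta and raised at least 1.3-fold in F. trinervia, was met by 63 rows. How many floor rows met each of these steps alone was not counted, so this number is not comparable with that of the members.

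The 124 members had a wide range of ratios in F. robusta and, by the limits of the choice, a narrow one in F. trinervia. The ratio of high-light to control mean TPM in F. robusta had a median of 1.85, with quartiles of 1.61 and 2.38, and lay between 1.32 and 18.9. A ratio of at least 2 was reached by 48 members and one of at least 3 by 20, while 20 were under 1.5. In F. trinervia the ratio had a median of 0.634, with quartiles of 0.558 and 0.690, and 47 members were under 0.6. Both ranges were set by the choice, so how the ratios of the 2 species relate cannot be read from the members. The other 282 rows raised in F. robusta lack those that met the F. trinervia step. Their F. trinervia ratios are thus shaped by the choice as well, and are given as a description. The median F. trinervia ratio of these rows was 0.951, 0.944, 0.781 and 0.486 from the lowest to the highest class of F. robusta ratio (1.3 to 1.5, 1.5 to 2, 2 to 3, and 3 or more).

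**Figure D1:**
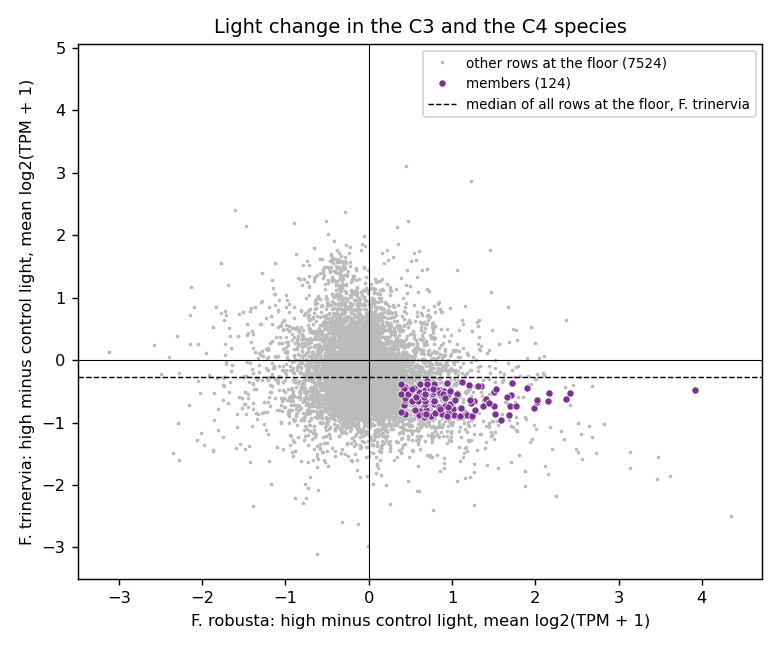
Mean log2(TPM + 1) in high light minus control light, with F. robusta on the horizontal and F. trinervia on the vertical axis. Each point is a gene row that reached the 5 TPM floor, members in purple and other rows in grey, and the dashed line is the F. trinervia median of all floor rows at -0.28. The members fill the part of the lower right quadrant that the limits of the choice cut out, around medians of 0.86 in F. robusta and -0.63 in F. trinervia.

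The medians of the members were 0.86 in F. robusta and -0.63 in F. trinervia as log2(TPM + 1) changes. Set against the floor rows, the distance in F. trinervia was smaller, at -0.36. After scaling each species' libraries by their median ratio, all 124 members still had a higher mean in high light in F. robusta and a lower mean in F. trinervia. Their medians were then 0.95 in F. robusta and -0.30 in F. trinervia, beside floor-row medians of 0.031 and 0.052. The groups of F. trinervia then overlapped in many members, because 55 had every high-light library below every control library, and 33 met the whole rule. In all, 151 rows met the rule after this scaling, so most of them were not members. Quantile normalization left 48 members among the 138 rows that met it.

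Many members met the non-overlap condition narrowly. The lowest high-light library of F. robusta was a median of 1.21 times the highest control library, and in 33 members at most 1.1 times. In F. trinervia the lowest control library was a median of 1.28 times the highest high-light library, and in 25 members at most 1.1 times. At the ratio limits, the lowest F. robusta ratio among members was 1.32, and 6 rows that met everything else lay between 1.21 and 1.299. The lowest F. trinervia ratio among members was 0.501 and the nearest outside 0.495, while at the upper limit the values were 0.766 inside and 0.774 outside. Without high-light library 2 of F. robusta 791 rows met the rule, 118 of them members, and without control library 1 of that species 221 rows did, 123 of them members.

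Gene22156 stood first in the difference between species. In F. robusta it had 141, 32.7 and 151 TPM in high light, against 8.85, 1.85 and 6.42 TPM in control light. In F. trinervia it had 11.7, 9.58 and 9.67 TPM in high light, against 16.7, 13.9 and 13.9 TPM in control light. The ratios were 18.9 in F. robusta and 0.695 in F. trinervia, and library 2 was the lowest of both F. robusta groups. In F. ramosissima it had 0.44, 0.41 and 0.49 TPM in high light, against 14.8, 2.45 and 0.65 TPM in control light. The control libraries of F. ramosissima thus spread widely, and the lowest of them stood just above the high-light libraries. The log2(TPM + 1) change there was -1.63 ± 0.78 (SE, n = 3 libraries per light level, limma adjusted p = 0.562). Without control library 1 of F. ramosissima it was -0.72, and without any other single library it lay between -2.35 and -1.61.

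Gene17917 was the most abundant member in every species. In F. robusta it had 914, 1024 and 1103 TPM in high light, against 600, 849 and 648 TPM in control light. In F. trinervia it had 2052, 1648 and 2017 TPM in high light, against 2934, 2646 and 2221 TPM in control light. The C4 species stood above the C3 species at either light level, since its lowest library at 1648 TPM exceeded the highest of F. robusta at 1103 TPM. In F. ramosissima it had 1032, 931 and 1432 TPM in high light, against 966, 846 and 594 TPM in control light, and the groups overlapped. The change of 0.50 ± 0.26 in F. ramosissima (SE, n = 3 per light level, limma adjusted p = 0.58) did not pass the threshold.

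Gene03815 had the most positive change in F. ramosissima, with 119, 124 and 124 TPM in high light, against 42.3, 38.9 and 54.6 TPM in control light. Every high-light library was more than 2 times every control library of that species. In F. robusta it had 22.8, 16.5 and 16.9 TPM in high light, against 9.60, 13.4 and 14.8 TPM in control light. In F. trinervia it had 22.6, 13.3 and 23.5 TPM in high light, against 39.6, 33.8 and 27.6 TPM in control light. The F. ramosissima libraries stood above those of the other species at both light levels, except that the highest F. trinervia control library at 39.6 TPM exceeded the lowest F. ramosissima control library at 38.9 TPM. The change in F. ramosissima was 1.43 ± 0.21 (SE, n = 3 per light level, limma adjusted p = 0.264 with that species fitted alone).

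Gene32993 had the most negative change in F. ramosissima, with 7.41, 3.41 and 2.53 TPM in high light, against 51.6, 23.3 and 32.2 TPM in control light. In F. robusta it had 31.3, 29.7 and 40.2 TPM in high light, against 17.7, 8.61 and 14.98 TPM in control light. In F. trinervia it had 7.43, 4.08 and 5.11 TPM in high light, against 11.5, 11.6 and 7.86 TPM in control light. The intermediate species thus moved with the C4 species here, and its ratio of 0.125 lay further from 1 than that of F. trinervia at 0.536. The change in F. ramosissima was -2.78 ± 0.43 (SE, n = 3 per light level, limma adjusted p = 0.311 with that species fitted alone).

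**Figure D2:**
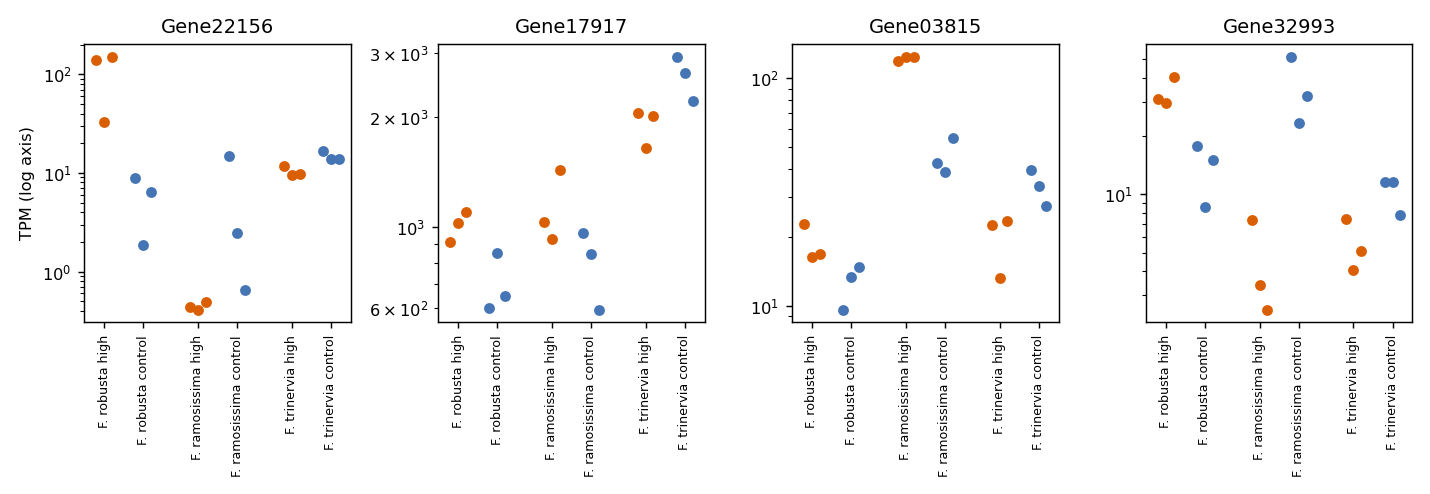
TPM of the 4 named members on a log axis, with 1 point per library, high light in orange and control light in blue, for each species. Gene03815 in F. ramosissima had 119 to 124 TPM in high light, against 38.9 to 54.6 TPM in control light, while Gene32993 there had 2.53 to 7.41 TPM in high light, against 23.3 to 51.6 TPM in control light.

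F. ramosissima gives the light contrast that the choice did not use. Across the 124 members its changes went both ways, with a median of -0.21 and quartiles of -0.70 and 0.29, beside a median of -0.12 and quartiles of -0.37 and 0.11 for all floor rows. Leaving out single F. ramosissima libraries moved the median of the members between -0.32, without control library 2, and -0.080, without high-light library 2, and that of the floor rows was then -0.21 and -0.049. Without control library 1 the median was -0.081 over members and -0.041 over floor rows. The median ratio was 0.868, and 74 members had a negative change (59.7%, against 63.5% of floor rows). The members were thus more widely spread than the floor rows on both sides. The spread between replicates was also larger, with a median SD of 0.35 in high light and 0.46 in control light on the log2 scale, against 0.28 and 0.31 for floor rows. How far it widened the changes was not tested. After median-ratio scaling the median of the members was -0.037 and that of the floor rows 0.031.

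No member passed the test in F. ramosissima. With this species fitted alone, limma (two-sided, Benjamini-Hochberg adjusted over 18043 genes) called 4 genes in all (0.0222%) and 0 of the 122 members tested, and the smallest adjusted p of a member was 0.264. The other 2 members had a mean under 1 TPM there. At an unadjusted p under 0.05 there were 26 members (21.3%), 9 higher and 17 lower, beside 9.60% of all genes tested and 9.43% of floor rows. In a model of all 18 libraries, which shares 1 estimate of the spread, 10 of 124 members passed an adjusted p of 0.05 (8.06%), 4 higher and 6 lower, beside 2.34% of all genes and 1.40% of floor rows. Gene03815 was among those 10, with an adjusted p of 0.00568 in limma, and so was Gene32993, at 0.000942. Both were named for the size of this same change, so their p-values are no separate support for it. The spread in that model also comes from the F. robusta and F. trinervia libraries whose values chose the members. Groups that may not overlap favour rows with a small spread there. The shares of members and of other rows called in that model are thus not comparable and are given as a description.

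In 18 members (14.5%) every high-light library of F. ramosissima lay below every control library, beside 10.2% of floor rows, and in 14 (11.3%) every one lay above, beside 5.50%. In the remaining 92 the light levels overlapped. The other rows raised in F. robusta had 10.6% below and 9.22% above, and the other rows lowered in F. trinervia had 6.79% below and 5.38% above. The 73 rows raised in F. robusta whose F. trinervia ratio was 0.5 or less had 19.2% below and 4.11% above. None of the differences between these shares was tested. Among the 791 rows that met the rule without high-light library 2 of F. robusta, 10.4% lay below and 4.05% above, near the floor rows. Among the 221 rows without control library 1 of that species, 14.5% lay below and 7.24% above.

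The 18 members that were lower in F. ramosissima had ratios there between 0.0748 and 0.675, with a median of 0.469. The 14 that were higher had ratios between 1.24 and 2.71, with a median of 1.79. These sets differed in their F. robusta ratios, which had medians of 2.93 and 1.65. Their F. trinervia ratios were alike, with medians of 0.632 and 0.627. A member at rank 7 illustrates the first set, with 4.16, 3.09 and 6.56 TPM in high light, against 39.7, 7.38 and 14.2 TPM in control light in F. ramosissima. In F. robusta the same row had 121, 44.6 and 89.2 TPM in high light, against 33.7, 17.8 and 18.3 TPM in control light. The member at rank 122 illustrates the other, with 31.0, 22.3 and 17.3 TPM in high light, against 11.4, 11.8 and 6.20 TPM in control light in F. ramosissima. That row had a ratio of 1.39 in F. robusta, with 12.9, 9.99 and 10.9 TPM in high light, against 8.23, 7.89 and 8.16 TPM in control light.

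The larger the ratio in F. robusta, the more often a member was lower in high light in F. ramosissima. Of the 20 members with a F. robusta ratio of at least 3, 19 had a negative change in F. ramosissima, with a median of -0.77, and 9 of them had groups that did not overlap, all lower. The 28 members with ratios of 2 to 3 had a median of -0.36, and 19 were negative. The 56 members with ratios of 1.5 to 2 were evenly divided, with 28 negative and a median of 0.0018, and the 20 members under 1.5 had a median of 0.053 with 8 negative. None of the 14 members that were higher in every high-light library of F. ramosissima had a F. robusta ratio of 3 or more. Over all floor rows, 63.5% had a negative change in F. ramosissima. There 10.2% were lower and 5.50% higher in every high-light library.

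Across the 124 members, the F. robusta log2 ratio and the F. ramosissima change had a Pearson r of -0.46 and a Spearman rho of -0.45. Without the 2 members farthest from the median ratio, r was -0.47. The value is a description across genes that share 12 libraries. Leaving out single F. ramosissima libraries gave a rho between -0.46 and -0.41. With the F. robusta ratio taken without high-light library 2 of that species rho was -0.48, and without its control library 1 it was -0.53. In the class of at least 3, the median change was -0.64 without control library 1 of F. ramosissima, -1.25 without control library 2 and -0.60 after median-ratio scaling. In the class of 2 to 3 the median was -0.58 without control library 2 and -0.20 after median-ratio scaling. In the class of 1.5 to 2 it was -0.17 without control library 2 and 0.18 after scaling, and in the class under 1.5 it was -0.026 and 0.23. The sign of the lower classes thus depended on these settings. F. trinervia ratios had no such relation to the F. ramosissima change within the narrow range the rule allows, with a rho of 0.084.

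The relation was not particular to the members. The other 282 rows raised in F. robusta gave an r of -0.43 and a rho of -0.32. Their 43 rows with a F. robusta ratio of at least 3 had a median change of -0.79 in F. ramosissima, close to the -0.77 of the members, and 36 of them were negative. The 73 rows that were raised in F. robusta but lay below the lower F. trinervia limit had a median of -0.47 in F. ramosissima, with 14 lower (19.2%) and 3 higher (4.11%) in every high-light library.

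**Figure D3:**
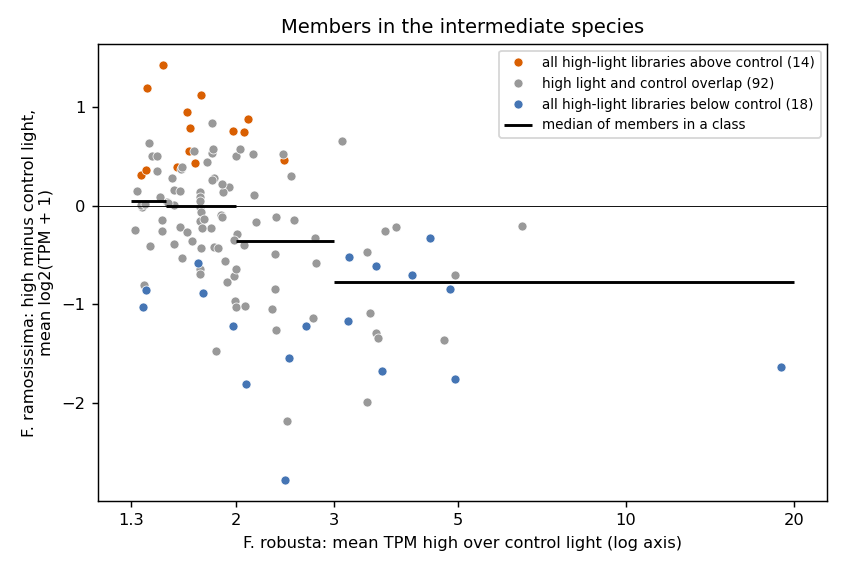
Change in F. ramosissima (mean log2(TPM + 1) in high light minus control light) against the F. robusta ratio of mean TPM on a log axis, with 1 point per member. Colours mark members whose F. ramosissima high-light libraries lay all above (14), all below (18) or overlapped with the control libraries (92), and black lines are medians of the ratio classes, which lie at 0.053, 0.0018, -0.36 and -0.77 from the lowest class to the highest.

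The summed level of the members in F. robusta was 6515 ± 619 TPM in high light and 3541 ± 216 TPM in control light (SD, n = 3 each). In F. ramosissima it was 3264 ± 392 TPM in high light and 3317 ± 623 TPM in control light, and in F. trinervia 4868 ± 481 TPM in high light and 7182 ± 587 TPM in control light. The direction of the sums in F. robusta and F. trinervia is fixed by the choice, while the groups of F. ramosissima differed by less than their spread. Gene17917 alone made up a large part of the F. trinervia sum, which was 2962 TPM in high light and 4581 TPM in control light without it. In F. ramosissima the sums without it were 2133 TPM in high light and 2515 TPM in control light.

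For the 20 members with a F. robusta ratio of at least 3, the median TPM over members was 33.2 ± 7.14 in high light and 7.82 ± 2.57 in control light in F. robusta (SD, n = 3 each). In F. ramosissima it was 5.55 ± 2.01 in high light and 13.8 ± 5.98 in control light. In F. trinervia it was 8.77 ± 0.15 in high light and 14.1 ± 0.50 in control light. The F. robusta mean in control light thus lay below the control means of the other species, and its mean in high light lay above all of them. In control light the libraries of F. robusta and F. ramosissima overlapped, with 10.7 TPM in F. robusta library 1 and 7.425 TPM in F. ramosissima library 2. Since members entered this class by the F. robusta ratio, which is high where the control level is low, this order is a description.

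**Figure D4:**
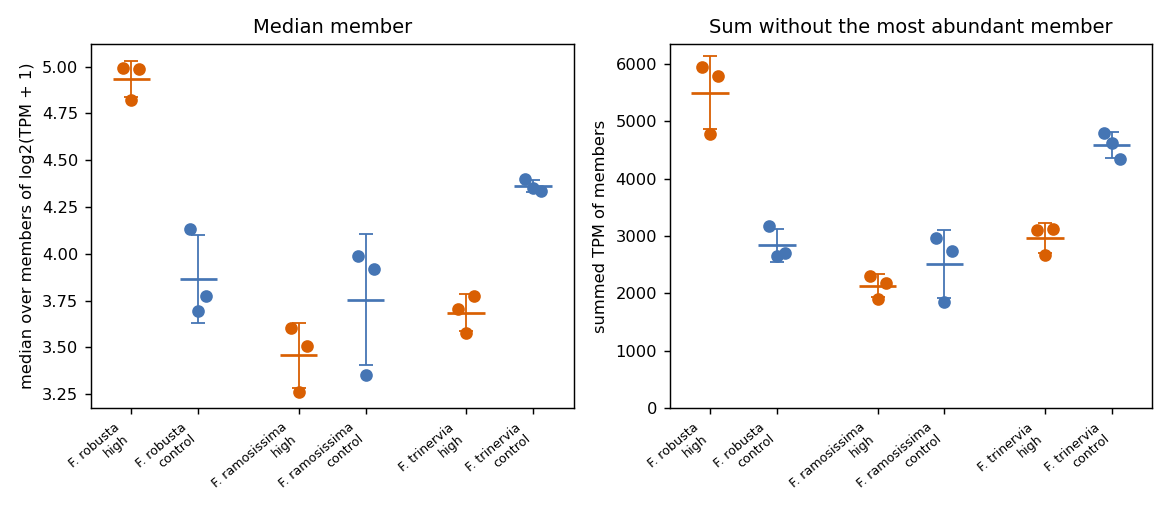
Left, the median over the 124 members of log2(TPM + 1) in each library, and right, their summed TPM without the most abundant member, with the vertical axis starting at 0. Points are libraries, high light in orange and control light in blue, and bars give the mean ± SD of 3 libraries. Without Gene17917 the F. ramosissima sums averaged 2133 TPM in high light and 2515 TPM in control light, and their points overlap.

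Averaged over both light levels, the members had a median mean level of 16.7 TPM in F. trinervia, 13.2 TPM in F. ramosissima and 21.9 TPM in F. robusta. The floor rows had 20.5 TPM in F. trinervia, 12.1 TPM in F. ramosissima and 20.7 TPM in F. robusta. The choice set no minimum in F. ramosissima, where 23 members were under 5 TPM and 2 under 1 TPM. Levels were tested with limma in the model of all 18 libraries, over 18911 genes. Beyond the 5 TPM floor the choice set no limit on this level, but the test used the libraries that chose the members. Groups that may not overlap also favour rows with a small spread, and the median SD of log2 values in F. robusta high light was 0.29 over members, against 0.42 over floor rows. Shares of members called are therefore not comparable with those of other rows and are given side by side as a description. How rows were matched between species is not stated in the sources used here, and its effect on the level differences was not tested.

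Between F. trinervia and F. robusta, 33 members were higher (26.6%) and 50 lower (40.3%) in F. trinervia at an adjusted p of 0.05, and 41 did not pass. Of all genes tested 29.2% were higher and 30.0% lower, and of floor rows 29.9% were higher and 25.4% lower. The median difference was -0.21 over the members and 0.047 over floor rows. Median-ratio scaling gave 27.4% higher and 40.3% lower members, beside 32.3% higher and 27.8% lower floor rows. Without high-light library 2 of F. robusta, 32 members were higher and 53 lower, and the floor-row median became -0.050. Of the 7648 floor rows 2090 were then higher and 2384 lower, against 2286 higher and 1946 lower with all libraries.

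The members with the largest level differences lay on both sides. The member at rank 122 had the largest difference towards F. trinervia, with 95.5 TPM there against 9.67 TPM in F. robusta as means of both light levels. The difference was 3.17 ± 0.17 on the log2(TPM + 1) scale (SE, n = 6 libraries per species, limma adjusted p = 1.04e-10). The member at rank 51 followed, with 344 TPM in F. trinervia and 54.9 TPM in F. robusta. At the other end the member at rank 115 had 30.2 TPM in F. trinervia and 246 TPM in F. robusta, a difference of -2.99 ± 0.19 (SE, n = 6, limma adjusted p = 1.05e-09). Its libraries separated fully, with 21.3 to 39.8 TPM over all of F. trinervia, against 192 to 332 TPM over all of F. robusta.

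Of the named members, Gene17917 was higher in F. trinervia than in F. robusta by 1.40 ± 0.15 (SE, n = 6 libraries per species, limma adjusted p = 4.41e-07). Gene03815 was higher by 0.70 ± 0.17 (limma adjusted p = 0.00175), and Gene32993 was lower, at -1.39 ± 0.25 (limma adjusted p = 0.000169). The level difference of Gene22156 was -0.79 ± 0.49 and did not pass the threshold (limma adjusted p = 0.184).

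**Figure D5:**
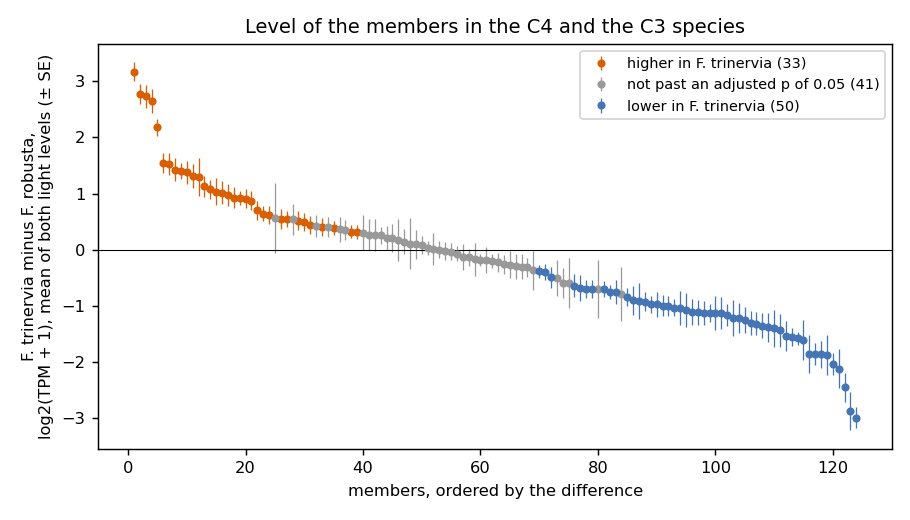
Difference in level between F. trinervia and F. robusta for each of the 124 members, as log2(TPM + 1) averaged over both light levels, ordered from the highest to the lowest with bars of 1 SE. Orange marks the 33 members called higher and blue the 50 called lower in F. trinervia at a limma adjusted p of 0.05, and grey the 41 not called.

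Between F. ramosissima and F. robusta, 11 members were higher (8.87%) and 87 lower (70.2%) in F. ramosissima, beside 32.2% higher and 45.7% lower over all genes and 14.8% higher and 59.5% lower over floor rows. Between F. trinervia and F. ramosissima, 64 were higher (51.6%) and 20 lower (16.1%) in F. trinervia, beside 43.9% higher and 32.3% lower over all genes and 61.3% higher and 13.6% lower over floor rows. The floor rows share the minimum in F. robusta and F. trinervia, which F. ramosissima did not have to meet. Both splits depended on scaling. After median-ratio scaling 34 members were higher (27.4%) and 45 lower (36.3%) in F. ramosissima than in F. robusta, beside 34.2% higher and 34.2% lower floor rows. In F. trinervia 42 were then higher (33.9%) and 50 lower (40.3%) than in F. ramosissima, beside 36.6% higher and 31.9% lower floor rows. These comparisons share libraries with each other. Gene03815 was higher in F. ramosissima than in F. robusta by 2.21 (limma adjusted p = 5.90e-09), and lower in F. trinervia than in F. ramosissima, at -1.51 (limma adjusted p = 5.93e-07).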

How the data were processed

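RNA of newly expanded leaves from 18 libraries was read as paired ends of 150 bp. The authors deposited 1 table of TPM values, and the submitters' processing notes name RSEM and edgeR without versions. The sources used here state neither the reference nor how rows were matched between species. Of 30041 rows, 1 that ran into the next was left out. Columns ending in H were taken as high light and those in L as the control, a reading the labels do not spell out. The members and the lists were chosen with earlier results of these data known, and gene and marker lists could not be used because no names were given. Values were tested as log2(TPM + 1), which understates changes of low rows, with limma 3.58.1 in R 4.3.3 (lmFit, eBayes with trend, two-sided, Benjamini-Hochberg over all genes tested). The light test took the 6 F. ramosissima libraries and genes whose mean there was 1 TPM or more. The level test took 6 groups of 18 libraries and genes at an overall mean of at least 1 TPM. Named members were the 4 extremes defined in the report. Alternatives were a pseudocount of 0.1, other filters and limits, median-ratio and quantile scaling, species weights, other sets of samples, a replicate block and leaving out each library. The code was tested on simulated data.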

Additional observations from a re-analysis of the deposited data

Results flagged for a closer look

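By their choice, all 124 members went up in every high-light library of F. robusta and down in every one of F. trinervia. In 18 members (14.5%) F. ramosissima went opposite to F. robusta in every library, beside 10.2% of floor rows that were lower in this way in F. ramosissima, and in 14 members (11.3%) it went opposite to F. trinervia, beside 5.50% of floor rows that were higher. Among the named members, Gene22156 (-1.63 in F. ramosissima, or -0.72 without control library 1) and Gene32993 (-2.78 in F. ramosissima) were opposite to F. robusta, and Gene03815 (1.43 in F. ramosissima) was opposite to F. trinervia, all on the log2(TPM + 1) scale. These differences between species were not tested, because the choice used 1 side of each.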

How the results depend on the processing

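Without fold limits 227 rows met the rule, and with a floor of 10 TPM 73 did. Median-ratio scaling gave 151 rows, 33 of them members, and quantile normalization gave 138, 48 of them members. Leaving out single libraries gave 120 to 791 rows, with 791 without F. robusta high-light library 2 and 221 without its control library 1. The median change of members in F. trinervia was -0.30 after median-ratio scaling and -0.40 after quantile normalization, and -0.64 to -0.58 with libraries left out. In F. ramosissima the model of all 18 libraries called 10 members (8.06%), beside 1.40% of floor rows. These 2 shares are not comparable, because that model takes its spread in part from the libraries that chose the members. Gene03815 at 1.43 and Gene32993 at -2.78 were among the 10 members, and each other alternative called 0. The members called by level numbered 78 to 85 between F. trinervia and F. robusta, 89 to 100 between F. ramosissima and F. robusta, and 77 to 85 between F. trinervia and F. ramosissima with libraries left out. Most floor rows were also called by level, so these counts show only how far the calls of members moved. No named member changed sign under any alternative run. Gene22156 fell below the filter at a mean of 5 TPM and, without F. ramosissima control library 1, below that at 1 TPM, so it had no test there. Whether replicate numbers pair libraries was not tested against other pairings. Same-numbered libraries of the 2 light levels had correlations of -0.09, 0.19 and 0.07 between their deviations from the group means in F. ramosissima. With the replicate block 0 members were called there, 34 (27.9%) had an unadjusted p under 0.05, beside 11.4% of floor rows and 11.8% of all genes, and in the level comparisons 85 (68.5%), 99 (79.8%) and 86 (69.4%) members were called, beside 56.7%, 75.5% and 75.6% of floor rows. Values by F. robusta ratio without single libraries were chosen after seeing the data. Unknown depth limits all low values.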
